A study of Mus musculus with 12 samples.

Results

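The nuclear-encoded genes of oxidative phosphorylation were taken from the tables of genes that differed between tdTomato- and tdTomato+ group 2 innate lymphoid cells (ILC2s) of the mouse lung. A gene was a member when its symbol began with Nduf, Uqcr, Cox4 to Cox8 or Atp5, or was Sdha, Sdhb, Sdhc, Sdhd, Cyc1 or Cycs. This rule found 35 of the 3439 listed genes, and it used only symbols. All 35 members were in the table of genes lower in tdTomato+ ILC2s, and 0 were in the table of genes higher in these cells. By complex, the members comprised 9 genes of complex I, 2 of complex II, 5 of complex III, the gene of cytochrome c, 7 of complex IV and 11 of complex V.

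The cells came from lungs of male Tigit fm mice (genotype TIGIT-Cre-ERT2:Rosa26-LSL-tdTomato). Both populations had received the same treatment, papain through the nose, a protease that acts as an allergen, and oral tamoxifen, which activates the Cre recombinase. Cre was driven from the Tigit locus, so that tdTomato marks cells that expressed Tigit while tamoxifen was present and does not by itself report the TIGIT level at the time of sorting. The paper reported a subtle TIGIT signal that correlated with tdTomato, and that tdTomato+ ILC2s kept TIGIT. The labels list 4 RNA-seq libraries of tdTomato- ILC2s and 4 of tdTomato+ ILC2s, and 2 ATAC-seq libraries of each population, which were not analysed here. The deposited tables hold no value of a single library, so depth and the spread between replicates are unknown. Of the numeric columns, the only one used was the average log2 CPM (CPM, counts normalised for the size of each library) over the libraries of both populations together. It is a level of a gene in the experiment as a whole and not in either population. The direction of a gene was read from the table that lists it, and the size of its difference is not given here.

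Oxidative phosphorylation takes place in the inner mitochondrial membrane. Complexes I and II pass electrons from NADH and succinate to ubiquinone, complex III passes them on to cytochrome c, and complex IV hands them to oxygen. Complexes I, III and IV pump protons while doing so, and complex V, the ATP synthase, uses the proton gradient to make ATP. Subunits of complexes I, III, IV and V are encoded partly in the nucleus and partly in the mitochondrial genome, whereas complex II is encoded entirely in the nucleus. In ILC2s, as in other lymphocytes, the pathway supplies ATP alongside glycolysis.

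A gene was in these tables only when it had passed the authors' threshold on the false discovery rate and an average log2 CPM of 5, which corresponds to 32 CPM. A gene that was not listed may therefore have had a low level or a difference that did not pass, and no direction can be read for it. Of all 3439 rows, 2906 were lower genes, a share of 84.5%, so that most listed genes of any kind were lower in tdTomato+ ILC2s. Against the 21951 annotated protein-coding genes, 13.2% were listed as lower and 2.31% as higher. Of the 96 annotated protein-coding genes whose symbols match the rule, 36.5% were listed as lower and 0 as higher. Short genes were seldom listed as higher: 0.615% of protein-coding genes below 800 exonic bases and 0.0392% from 800 to below 1500. From 1500 to below 3000 bases the share was 0.0885%, and from 3000 bases on it was 3.91%. Members had a median exonic length of 2101 bases, so 0 as higher is close to the share of genes of that length. In bulk libraries, less RNA per cell and fewer cells that contain a transcript cannot be told apart.

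All 11 ILC2 markers looked up, Gata3 and Il1rl1 among them, were lower genes, with average log2 CPM values from 6.47 (Klrg1) to 9.98 (Il1rl1). Of 27 markers of other cell types, 2 were listed, both T cell genes and both lower: Cd3g at 6.12 and Lck at 5.35 average log2 CPM. None of the markers of B cells, natural killer cells, macrophages and granulocytes or epithelium were in either table. The part of other cell types in the lower levels of the respiratory genes was not tested.

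Promoters of respiratory genes are known for binding sites of NRF1, of ETS factors such as GABPA, and of YY1. A stretch upstream of the annotated gene is shown for members that hold a match there to the letters of NRF1 (the 10 capitals of the Sdha, Cox6a1 and Atp5h stretches, with any base at position 6), CCGGAAG (ETS) or AAGATGG (YY1) on either strand, since these genes span complexes II to V and include the succinate dehydrogenase flavoprotein and parts of the ATP synthase. The sequences are from RefSeq on GRCm38.p6, read 5′ to 3′ on the strand of the gene, with the matches in capitals. All 5 genes lie on the minus strand: Sdha at chr13:74350281-74350358, Uqcrh at chr4:116075072-116075100, Cox6a1 at chr5:115349046-115349140, Atp5h at chr11:115420031-115420080 and Atp5e at chr2:174464177-174464223.
Sdha: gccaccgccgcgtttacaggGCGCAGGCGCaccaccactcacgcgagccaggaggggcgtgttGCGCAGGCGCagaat
Uqcrh: actacgaggagtatgccgcaCTTCCGGcc
Cox6a1: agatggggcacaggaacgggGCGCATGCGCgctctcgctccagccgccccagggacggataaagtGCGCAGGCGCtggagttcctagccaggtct
Atp5h: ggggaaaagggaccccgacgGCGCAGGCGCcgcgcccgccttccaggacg
Atp5e: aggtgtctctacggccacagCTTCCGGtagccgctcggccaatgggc
The Sdha, Cox6a1 and Atp5h stretches hold matches to the NRF1 letters, and the Uqcrh and Atp5e stretches hold the ETS letters on the opposite strand.

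A promoter of 300 bases, from 250 before to 50 after the start, was given for 27 of the 35 members. The NRF1 letters were found in 7 of these 27 promoters (25.9%), namely those of Ndufa6, Sdha, Uqcrc1, Cox6a1, Atp5c1, Atp5h and Atp5g3. The same letters were in 13.1% of the promoters of all lower genes, in 7.44% of those of all protein-coding symbols and in 22.7% of those of 44 oxidative phosphorylation subunits that were not listed. The share among unlisted subunits was close to that among members. In 4 of the 7 genes a match began before the start, and in the other 3 all matches began after it. The ETS letters were found in 7 member promoters (25.9%), against 20.95% of lower genes, 13.4% of protein-coding symbols and 22.7% of unlisted subunits. The YY1 letters were in 4 member promoters (14.8%), against 9.40% of lower genes, 7.26% of protein-coding symbols and 15.9% of unlisted subunits. The Sp1 letters GGGCGG, which bind a general factor of GC-rich promoters, were in 48.1% of member promoters, 75.9% of those of lower genes, 51.0% of those of protein-coding symbols and 38.6% of those of unlisted subunits. At least 1 of the NRF1, ETS and YY1 letters was present in 15 of the 27 (55.6%), against 36.8% of lower genes and 24.7% of protein-coding symbols. This combined share was not computed for unlisted subunits, whose share was close to that of members for each of these motifs. A match of letters is a description and does not show that a factor binds.

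**Figure D1:**
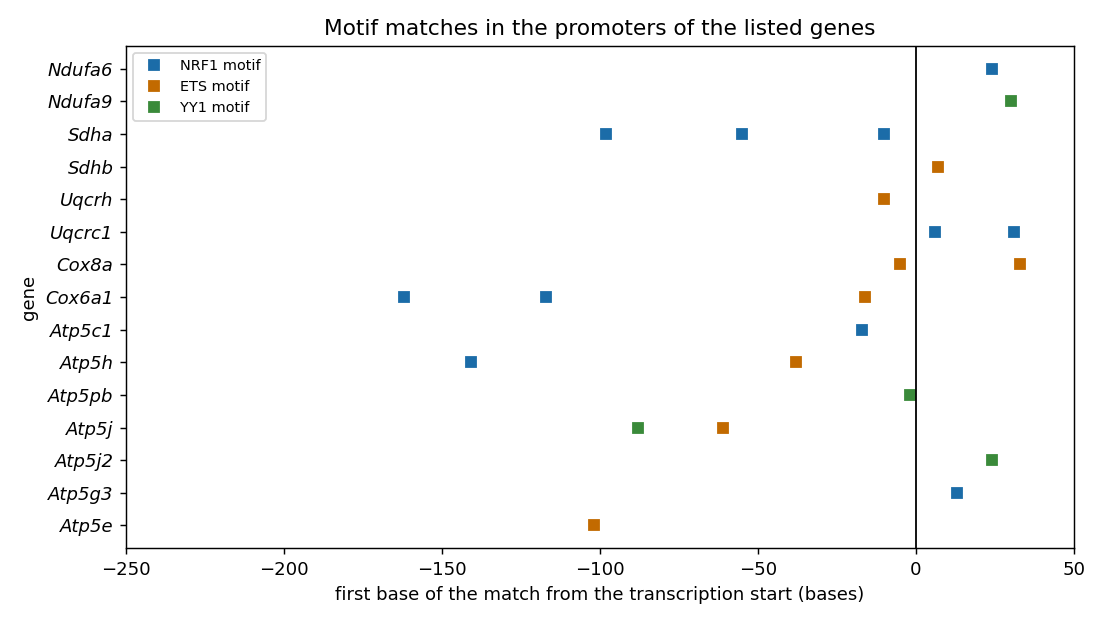
Position of each match to the NRF1, ETS or YY1 letters (squares, coloured by motif) in the promoters of the members that hold one. The horizontal axis is the distance in bases of the first base of the match from the transcription start of the promoter entry, from 250 before the start to 50 after it, and each line is a gene. Sdha has matches to the NRF1 letters at -98, -55 and -10, and Cox6a1 at -162 and -117.

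Complex I oxidises NADH and is the largest of the respiratory complexes. Of its 37 nuclear-encoded subunits, 9 were listed as lower (24.3%), a smaller share than in any other complex. They were 3 of the 7 core subunits, which carry the electrons, and 6 of the 30 other subunits. Among the core subunits, Ndufv2, an iron-sulfur protein of the NADH-oxidising module, had the highest average log2 CPM, 5.73. Ndufv1, which binds NADH and the flavin, was at 5.15.

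Of the other subunits of complex I, Ndufa6, which binds the acyl carrier protein of the complex, was highest, at 6.40 average log2 CPM. It was the only member of complex I above the median of all lower genes, 6.39. Ndufa10 and Ndufa13 of the membrane side followed at 5.79 and 5.56. The lowest were Ndufa9, an accessory subunit next to the ubiquinone site, at 5.37, Ndufv3 of the NADH-oxidising module at 5.35, and Ndufb10 of the membrane arm at 5.12. With the exception of Ndufa6, all members of complex I lay under the lower quartile of all lower genes, 5.80, and their median was 5.42.

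Complex II, succinate dehydrogenase, is shared between the respiratory chain and the tricarboxylic acid cycle. Both of its catalytic subunits were listed as lower, and 0 of its 2 membrane anchors, Sdhc and Sdhd, were. Sdha, the flavoprotein that oxidises succinate, had an average log2 CPM of 6.87 (117 CPM), and Sdhb, the iron-sulfur subunit, had 5.45 (43.7 CPM). Per kb of exonic length (the union of the exons in the annotation), on which levels of different genes can be compared, they were at 4.83 and 4.29 log2 CPM. Sdha covers chr13:74322254-74350280 in GRCm38, and the stretch printed for it lies just upstream of that.

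Of the 9 nuclear-encoded subunits of complex III, 5 were listed as lower (55.6%). Both core proteins were among them, Uqcrc1 at 5.82 and Uqcrc2 at 5.43 average log2 CPM. Of the small subunits, 3 of 5 were listed: Uqcrh, the hinge protein that meets cytochrome c, at 6.23, Uqcrq at 5.30, and Uqcrb, the ubiquinone-binding protein, at 5.06. The 2 nuclear genes of subunits that carry electrons, Cyc1 (cytochrome c1) and Uqcrfs1 (the Rieske iron-sulfur protein), were not listed. Per kb of exonic length, Uqcrh was highest in the complex at 5.92 log2 CPM and Uqcrc1 lowest at 3.77.

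Cycs, the somatic cytochrome c that shuttles electrons between complexes III and IV and is also known for its role in apoptosis, was listed as lower at an average log2 CPM of 5.19 (36.6 CPM). Per kb of exonic length its level, 3.42 log2 CPM, was the lowest of the 35 members. Per kb of coding length it was 6.86, above the medians of complexes I (5.70), II (5.79) and III (6.65). Its coding sequence has 11 near-identical copies elsewhere in the genome, of up to 100% identity, 9 of them in annotated pseudogenes. The reads that the authors assigned to Cycs are uncertain for this reason.

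Complex IV, cytochrome c oxidase, was represented by 6 of 18 nuclear-encoded subunits (33.3%) and by Cox7a2l, a factor that joins complexes III and IV into supercomplexes. Cox6c had the highest average log2 CPM, 6.99 (127 CPM), and was followed by Cox7a2l at 6.20. Cox4i1, the main form of the regulatory subunit, was at 6.01, and Cox5b, which binds zinc, was at 5.73. The small membrane-spanning subunits Cox7b, Cox8a and Cox6a1 were at 5.23, 5.22 and 5.05. Cox6a1, at 33.2 CPM, was therefore just above the limit of the tables.

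Several subunits of complex IV have forms restricted to certain tissues, such as muscle, lung or testis. None of the 8 genes of this kind looked up (Cox4i2, Cox6a2, Cox6b2, Cox7a1, Cox7b2, Cox8b, Cox8c and the related Ndufa4l2) were listed. They account for 7 of the 12 subunits of complex IV that were not listed. The others were the widely expressed Cox5a, Cox6b1, Cox7a2, Cox7c and Ndufa4.

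Complex V had the largest share of its subunits listed as lower among complexes I to V, 11 of 17 (64.7%). All 5 subunits of the F1 head, where ATP is made, were listed. Atp5a1 and Atp5b, the alpha and beta subunits that form the catalytic ring, had the highest average log2 CPM values of all 35 members, 7.65 (201 CPM) and 7.61 (195 CPM), and ranked 387 and 398 among the 2906 lower genes. Atp5c1, the gamma subunit of the rotating shaft, was at 6.66. Atp5d and Atp5e, the delta and epsilon subunits at its foot, were at 5.73 and 5.04, so that the genes of the F1 head included both the highest and the lowest average log2 CPM of the members.

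Of the peripheral stalk, which holds the head in place, 3 of 4 genes were listed: Atp5h (subunit d) at 6.66, Atp5pb (subunit b) at 6.34 and Atp5j (coupling factor 6) at 6.12 average log2 CPM. The fourth, Atp5o, was not listed. Of the 3 genes that encode the identical subunit c of the proton-driven ring, Atp5g3 was listed, at 5.39, and Atp5g1 and Atp5g2 were not. Of the other 5 membrane subunits, 2 were listed, Atp5mpl at 5.93 and Atp5j2 at 5.73. Atp5h, whose promoter stretch is printed, had the highest level per kb of exonic length of all members, 6.11 log2 CPM, followed by Atp5a1 at 6.00. By coding length Atp5h (483 bases) is not the highest, since Cox6c has a higher average log2 CPM, 6.99, and a shorter coding sequence, 228 bases.

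**Figure D2:**
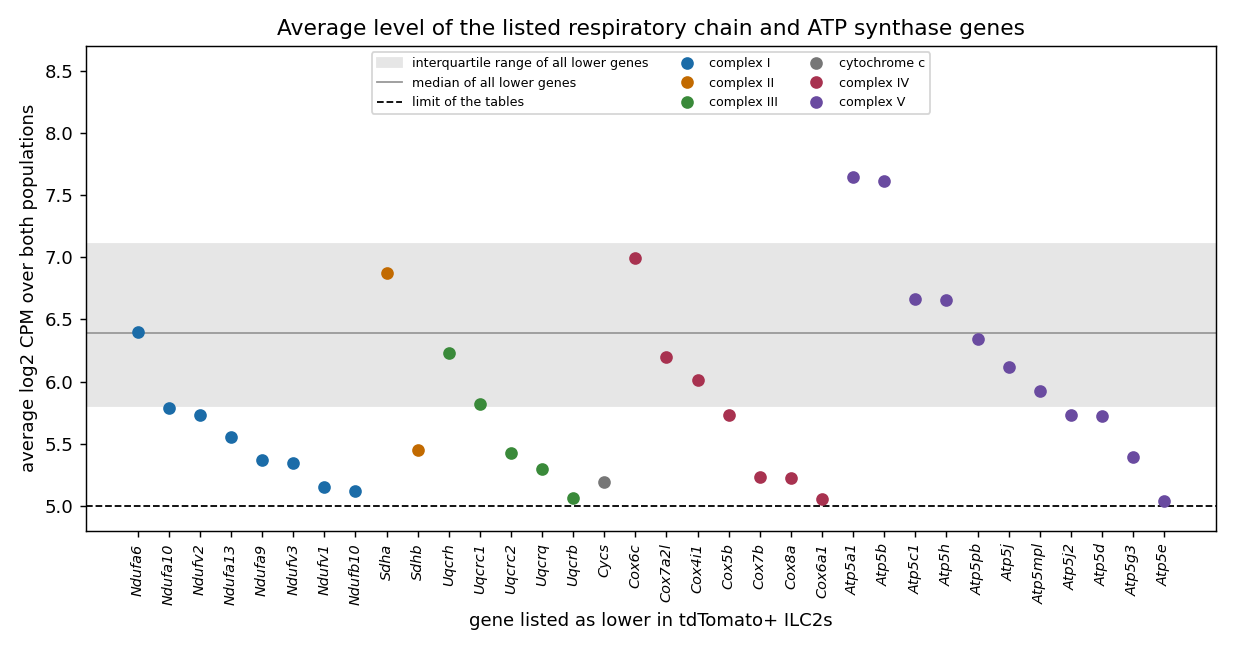
Average log2 CPM over both populations (vertical axis) of 34 of the 35 members (points), grouped and coloured by complex. The grey band spans the interquartile range of all 2906 lower genes, from 5.80 to 7.11, the grey line is their median of 6.39, and the dashed line is the limit of the tables, 5. Most members lie under the grey line, and Atp5a1 and Atp5b lie above the band.

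Summed over genes, the members of complex V came to 991 of the 2297 average CPM of all members, those of complex I to 435, of complex IV to 426, of complex III to 247 and of complex II to 161. These sums move with the number of genes listed. All members together made up 0.598% of the summed average CPM of the lower genes, while they were 1.20% of the lower genes by number. The median average log2 CPM was 5.42 for complex I, 6.16 for complex II, 5.43 for complex III, 5.73 for complex IV and 6.12 for complex V. Per kb of exonic length the medians were 4.29, 4.56, 4.43, 5.38 and 4.78 log2 CPM for complexes I to V in this order.

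The levels of the members were low for listed genes. Of the 35 members, 7 were above the median average log2 CPM of all lower genes, and the highest rank of a member by this level was 387 of 2906. Within 0.5 of the limit of the tables lay 15 members (42.9%), against 13.7% of all lower genes. Those just above the limit were Atp5e at 5.04, Cox6a1 at 5.05 and Uqcrb at 5.06. Genes of the same pathway with slightly lower levels would not have entered the tables, whatever their difference, and the tables used here give no level for an unlisted gene.

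Divided by exonic length the picture differed, since members were short, with a median of 2101 bases against 5194 for all lower genes. The median level per kb was 4.83 log2 CPM for the members and 3.95 for all lower genes, and 31 of the 35 members were above the latter. However, the limit of the tables itself corresponds to 3.93 log2 CPM per kb at the members' median length and to 2.62 at that of the lower genes, so that short genes enter the tables only at a high level per kb. Set against the lower genes of their own length class, 16 of the 35 members were above the median. Below 800 bases this held for 0 of 2 members, from 800 to below 1500 bases for 2 of 8, from 1500 to below 3000 bases for 5 of 14, and from 3000 bases on for 9 of 11.

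**Figure D3:**
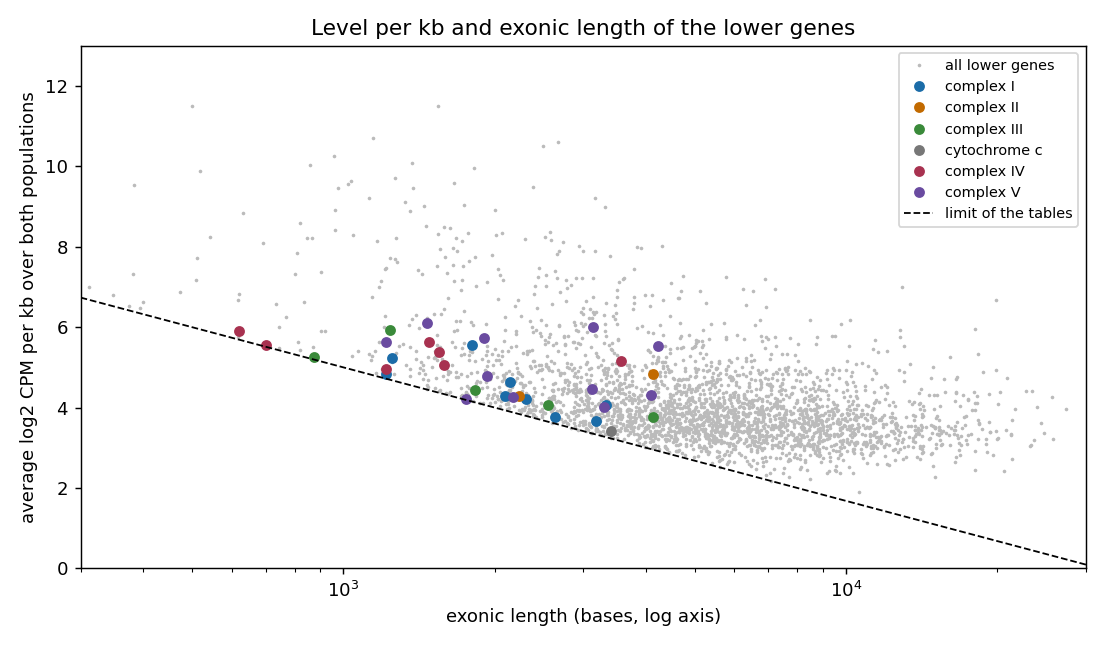
Average log2 CPM per kb over both populations (vertical axis) against exonic length in bases (horizontal log axis) for all lower genes found in the annotation (grey points) and for the members, coloured by complex. The dashed line is the limit of the tables, an average log2 CPM of 5, at each length. Members lie toward the short end, and many of them lie close to the dashed line.

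Length also differed between the subunits that were listed and those that were not. The 34 listed subunits had a median exonic length of 2124 bases, and the 52 others one of 1142 bases. The 52 include tissue-restricted forms of complex IV, most of them below 800 bases (Cox4i2, Cox6a2, Cox7a1, Cox7b2, Cox8b and Cox8c). Of the subunits below 800 bases 2 of 17 were listed (11.8%), of those from 800 to below 1500 bases 7 of 24 (29.2%), of those from 1500 to below 3000 bases 14 of 25 (56.0%), and of those from 3000 bases on 11 of 20 (55.0%). Over all annotated protein-coding genes the shares listed as lower in these classes were 2.11%, 3.53%, 8.27% and 18.4%. In each class the share of listed subunits was above that of all protein-coding genes, which include genes that are silent in these cells. The rise with length was not seen in complex V, where 11 listed subunits had a median of 2181 bases and 6 unlisted ones one of 2364 bases.

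Near-identical copies, often processed pseudogenes, are common for these genes and can take reads from them or lend reads to them. A copy was counted where at least 80% of the coding sequence aligned elsewhere in GRCm38 at an identity of at least 90%. Of the 34 listed subunits 11 had a copy (32.4%), and of 51 unlisted ones that were searched 22 did (43.1%). In complex V, 3 of the 11 listed subunits had a copy, namely Atp5h with 8, Atp5j2 with 3 and Atp5pb with 1, whereas all 6 unlisted ones had copies, 29 in all. In complex I, 0 of the 9 listed and 11 of the 27 unlisted subunits searched had a copy. In complex IV, copies were found for 5 of the 6 listed subunits and for 3 of the 12 unlisted ones. The 3 were the widely expressed Cox5a, Cox7c and Ndufa4, and the tissue-restricted forms among the 12 had 0 copies. The listed levels of the members with copies (Uqcrh, Uqcrb, Cycs, Cox6c, Cox5b, Cox7b, Cox8a, Cox6a1, Atp5h, Atp5pb and Atp5j2) are uncertain, and the part of copies in what was listed was not tested.

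**Figure D4:**
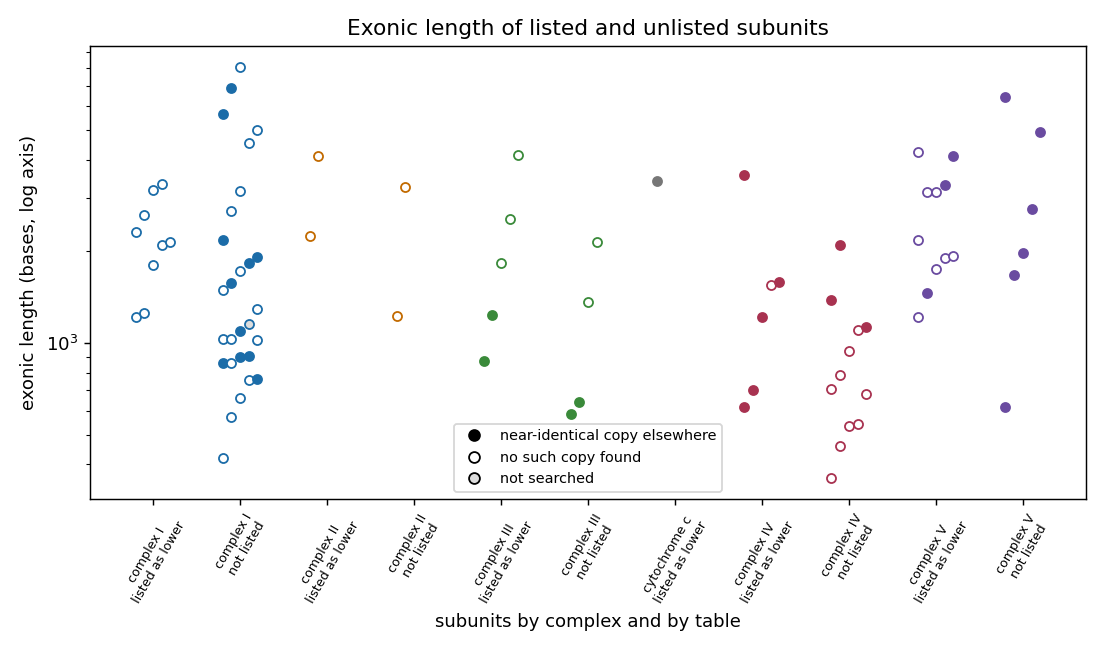
Exonic length in bases (vertical log axis) of the fixed subunits of each complex, split into those listed as lower and those not listed (horizontal axis). Each point is a gene, filled where a near-identical copy of its coding sequence was found elsewhere in the genome, open where none was found and grey where none was searched for. In complex V all 6 unlisted subunits are filled.

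The subunits encoded in the mitochondrial genome belong to the same complexes and are outside the symbol rule. Of 13 such genes 8 were listed as lower and 0 as higher, with a median average log2 CPM of 10.07. The highest, mt-Co1, the catalytic subunit of complex IV, was at 12.13, the highest level of all 2906 lower genes. It was followed by mt-Cytb of complex III at 10.90 and mt-Nd5 of complex I at 10.83, and the lowest were mt-Nd6 at 8.94 and mt-Nd3 at 5.28. Of the 7 mitochondrial genes of complex I, 6 were thus on the lower list beside the 9 nuclear ones, and mt-Atp6 and mt-Atp8 of complex V were not listed.

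Of 8 genes looked up for carriers and porins that move substrates of oxidative phosphorylation across the mitochondrial membranes, 7 were lower and 0 higher. This list was short and does not stand for all mitochondrial carriers. Ucp2, an uncoupling protein family member of immune cells, was highest at 8.51 average log2 CPM. Slc25a3, the phosphate carrier, was at 7.46, and Slc25a5, an exchanger of ADP and ATP, was at 6.35. The lowest were the outer membrane porins Vdac3 at 5.88 and Vdac1 at 5.60. Of 54 assembly factors, which help to build the complexes and are not part of them, 1 was listed, Coa5 of complex IV, as lower at 6.01.

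Of 16 regulators of respiratory genes, 4 were listed as lower and 0 as higher. Gabpb2 and Gabpa encode a beta subunit and the DNA-binding subunit of the ETS factor GABP and were at 7.31 and 6.01 average log2 CPM. Sp1 was at 7.26 and Yy1 at 6.56. Nrf1, Tfam, which packages and transcribes mitochondrial DNA, and the PGC-1 family genes Ppargc1a, Ppargc1b and Pprc1 were not listed.

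**Figure D5:**
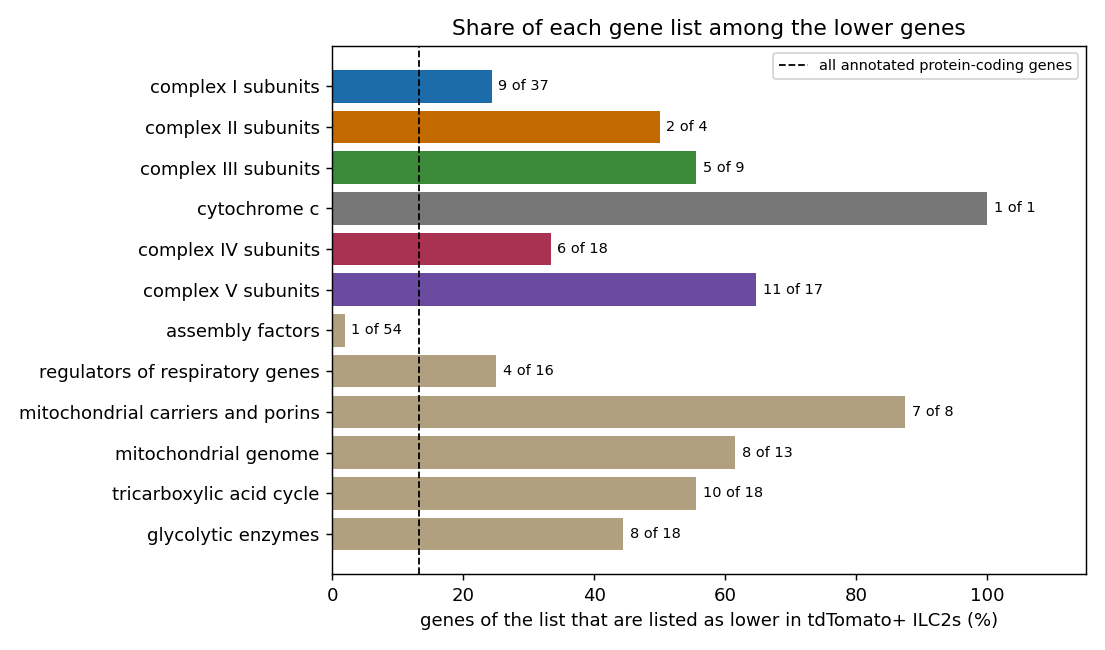
Share of each gene list that was listed as lower in tdTomato+ ILC2s (horizontal axis, percent), with the number of genes beside each bar. The dashed line is the share of all annotated protein-coding genes, 13.2%. The bar of assembly factors (1 of 54) ends short of the dashed line, and those of complexes I to V lie beyond it, from 24.3% in complex I to 64.7% in complex V.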

How the data were processed

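RNA was sequenced from tdTomato- and tdTomato+ lung ILC2s, 4 libraries of each in the labels. Per the study's methods, the authors used FASTP for read quality, STAR for alignment to GRCm39, featureCounts on Ensembl genes for counting and edgeR for the comparison. The submitters' processing notes list mm10 and no versions. The authors deposited 2 tables whose average log2 CPM is the log2 of a mean over both populations. Their 4 other numeric columns (log2 fold change, likelihood ratio, p-value and false discovery rate) hold the authors' own comparison and were not used, so no test was made. Which libraries entered the comparison is not given in the sources used here.

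Members and lists were chosen with earlier results of these data known, and the parts of complexes II, III and V after the tables were seen. Listed members of complexes II to V and cytochrome c were all named, as were the core and the 3 highest and 3 lowest other genes of complex I. Of other lists, listed genes were named where 5 or fewer, and otherwise the 3 highest and 2 lowest. A few unlisted genes were named after the tables were seen, and 1 gene of complex I enters the counts but is not reported here. Positions and lengths came from GENCODE M21 on GRCm38 by Ensembl identifier (2905 of 2906 lower and 531 of 533 higher genes found), promoters from RefSeq on GRCm38.p6. Copies were searched with blastn 2.17.0, and summaries made with Python 3.11.15. Motif search and symbol rule were tested on simulated data. Alternatives were a higher limit, subunits only, means, other lengths, a shorter promoter window and another copy coverage.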

Additional observations from a re-analysis of the deposited data

How the results depend on the processing

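The tables hold no single libraries, so no replicate could be left out, and depth, replicate spread and the precision of each level are unknown. No paired analysis was possible because no value of a single library was used. Of 43 alternatives, 31 left a value within its tolerance (a count within 1.5 times, a share or median within its 95% binomial interval) and 12 did not. With 1 gene of cytochrome c and 2 of complex II, no 95% interval of a median can be formed. For these sets, being within tolerance or not has little meaning. The longest transcript and the copy coverage of 50% were chosen after seeing the data. With an average log2 CPM over 6 in place of 5, 12 members were listed, 12.5% of the annotated genes that match the rule. Dividing by coding length raised the median log2 CPM per kb to 5.70 for complex I, 5.79 for complex II, 6.65 for complex III, 6.86 for cytochrome c, 7.29 for complex IV and 6.94 for complex V. With the longest transcript it was 4.83 for complex I, 5.24 for complex II, 4.69 for complex III and 3.55 for cytochrome c. By the same length it was 5.94 for complex IV and 5.87 for complex V, which were thus close. Complex IV had the highest median per kb by all 3 lengths. Its members also had the shortest median exonic length of complexes I to V, 1478 bases, against 2181 in complex V. Short genes enter the tables only at a high level per kb, and the part of the limit in this order was not tested. Before division by length, the medians of complexes II (6.16) and V (6.12) were above that of complex IV (5.73). In the 150 bases before the start, the YY1 letters were in 3.70% of member promoters and in 0% of those of unlisted subunits. The NRF1 letters were there in 14.8% of member promoters and in 20.5% of those of unlisted subunits. The ETS letters were in 18.5% and 11.4% in the same order.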

Other observations

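Enzymes that feed the respiratory chain were also among the lower genes. Of 18 genes of the tricarboxylic acid cycle and pyruvate dehydrogenase, 10 were listed as lower and 0 as higher, with a median average log2 CPM of 6.02. Ogdh, the first subunit of the oxoglutarate dehydrogenase complex, was highest at 7.05, followed by Pdha1 of pyruvate dehydrogenase at 6.45 and Mdh2, malate dehydrogenase, at 6.42. The lowest were Idh3a of isocitrate dehydrogenase at 5.70 and Pdhb at 5.44.

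Of 18 glycolytic genes, 8 were listed as lower and 0 as higher, with a median average log2 CPM of 7.48. Per kb of exonic length their median was 5.01 log2 CPM, against 4.83 for the 35 oxidative phosphorylation genes. Gapdh was highest at 7.90, Ldha, which makes lactate, was at 7.63 and Gpi1 at 7.57. The lowest were Eno1 at 6.67 and Pgk1 at 6.00. Near-identical copies of the glycolytic genes were not searched for.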
